A study of Drosophila melanogaster with 6 samples.

Results

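The muscle contractile and sarcomere genes studied here are 34 Drosophila melanogaster genes chosen by FlyBase symbol from the 17753 genes of a head RNA-seq count table. They encode the proteins of the thick filament, the thin filament, the Z disc, the giant muscle kinases and the calcium store, and 2 further abundant muscle proteins. All 34 were listed, 33 had counts, and the same 33 passed the filter on low counts that left 14069 genes to test. The projectin gene bt was listed at 0 in all 6 libraries, as were all 111 listed genes of chromosome 4 where it lies, so bt was not analysed here.

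Whole heads of adult flies aged 2 to 7 days after eclosion, raised at 25 °C, were compared between wBerlin, the control stock, and Kdm3 KO, a knockout of the histone demethylase gene Kdm3. Each genotype had 3 libraries of 50 heads each, with ribosomal RNA depleted. The labels call the libraries biological replicates but state neither separate vials, nor the sex of the flies, nor how the allele was made. The p-values measure only the spread between these samples. Libraries are numbered by their replicate. Libraries held 19850981 to 28237382 counts, at which 3 counts, the limit that a count of 0 allows, correspond to 0.108 to 0.138 CPM (the standard RNA-seq unit of counts relative to library size, here scaled by TMM). That limit covers counting error only. Kdm3 itself was at 28.7 to 32.5 CPM in wBerlin and 0.642 to 3.86 CPM in Kdm3 KO. The photoreceptor, neuron and glia markers of a head were present in every library.

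A muscle contracts when myosin heads of the thick filament pull on actin of the thin filament. Calcium released from the sarcoplasmic reticulum opens the thin filament by binding troponin C, and Z discs anchor the filaments at both ends of the sarcomere. Flies build several muscle types from partly different gene copies. Indirect flight muscle of the thorax has its own actin (Act88F), troponin C (TpnC4) and the thick filament protein flightin (fln), while tubular muscles of the legs and the jump muscle use Act79B and TpnC41C. Heads hold tubular muscles such as those of the proboscis and antennae and no indirect flight muscle. Act88F, TpnC4 and fln are therefore treated apart, and the other 31 members are called head muscle genes, although most of them, such as Mhc, serve flight muscle too.

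Summed muscle RNA differed more between the lowest and the highest wBerlin library than between the means of the genotypes. The 31 head muscle genes summed to 39954, 59856 and 73460 CPM in wBerlin libraries 1, 2 and 3 and to 31704, 42091 and 41623 CPM in Kdm3 KO libraries 1, 2 and 3. Libraries 2 and 3 of wBerlin stood above the other 4 libraries, and wBerlin library 1 lay within the range of Kdm3 KO, so the groups overlapped. Singly, 20 of the 30 tested head muscle genes had wBerlin library 1 within the Kdm3 KO range, where 51.2% of all tested genes did. On the log2 scale the summed level was 15.77 ± 0.45 in wBerlin and 15.22 ± 0.23 in Kdm3 KO (SD, n = 3), a difference of −0.55 that an exact two-sided permutation test did not separate from the spread (p = 0.3, where 3 against 3 cannot go below 0.1). Where a library was lower, fewer muscle cells, less RNA per muscle cell and a different mix of tissues cannot be told apart in whole heads.

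Of the 4 homeotic genes of thorax and abdomen, Antp and Ubx were highest in wBerlin libraries 2 and 3, and abd-A and Abd-B were not. Antp, which patterns the thorax, was at 10.5, 23.0 and 26.5 CPM in wBerlin libraries 1, 2 and 3 and at 8.47, 14.3 and 9.14 CPM in Kdm3 KO. For Ubx the levels were 4.13, 10.04 and 12.8 CPM in wBerlin and 2.50, 7.25 and 3.06 CPM in Kdm3 KO. Both genes were highest in the 2 wBerlin libraries that were also highest in head muscle RNA. The levels of abd-A were 5.67, 7.04 and 3.07 CPM in wBerlin and 3.54, 7.89 and 2.97 CPM in Kdm3 KO, and those of Abd-B 6.43, 8.61 and 6.09 CPM and 6.52, 13.7 and 5.15 CPM. Both of these were highest in Kdm3 KO library 2, and wBerlin library 3 was below library 1. The 4 genes, all with counts, summed to 26.7, 48.7 and 48.4 CPM in wBerlin and 21.0, 43.2 and 20.3 CPM in Kdm3 KO. Scr, 1 of 4 genes listed here as homeotic genes of the head, was also highest in wBerlin libraries 2 and 3. Its levels were 21.0, 39.3 and 31.6 CPM in wBerlin and 18.05, 19.9 and 22.7 CPM in Kdm3 KO. The other genes of that list, lab, pb and Dfd, did not have that excess.

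Markers of other head tissues differed between the libraries too. The 16 fat body markers, 14 of them with counts, summed to 16135, 14251 and 10041 CPM in wBerlin libraries 1, 2 and 3 and to 27000, 20977 and 25581 CPM in Kdm3 KO, with no overlap. By edgeR's test 4 of the 14 tested rose and 1 fell. Most of this sum came from the yolk protein genes Yp1, Yp2 and Yp3. Their means were 1628, 4131 and 4446 CPM in wBerlin and 2904, 7221 and 10095 CPM in Kdm3 KO. Of the other markers with counts, apoLTP, Mtp, Fbp1, AkhR, fit and Ilp6 lay above all wBerlin libraries in every Kdm3 KO library. Lsp2, FASN1, Lsd-1 and bmm overlapped, and to lay below. The 12 photoreceptor markers summed to 46008, 35298 and 32681 CPM in wBerlin and 38928, 28990 and 35527 CPM in Kdm3 KO, so wBerlin library 1, the lowest of its group in head muscle RNA, was the highest in these. The part of thoracic tissue, fat body or tissue composition in the muscle levels was not tested.

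**Figure D1:**
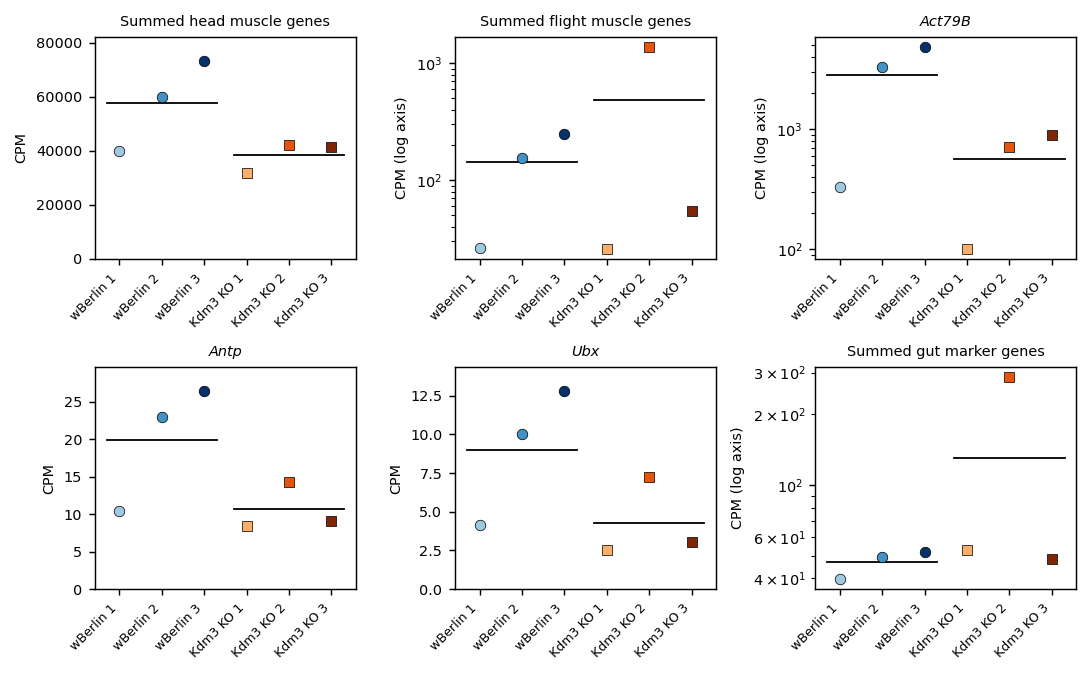
Levels in CPM (vertical axes, linear or log as labelled) of the summed head muscle genes, the summed flight muscle genes, Act79B, Antp, Ubx and the summed gut markers in each of the 6 libraries, with circles for wBerlin, squares for Kdm3 KO and a line at each group's mean. Head muscle genes, Act79B, Antp and Ubx are highest in wBerlin libraries 2 and 3, and flight muscle and gut genes are highest in Kdm3 KO library 2. Act88F makes up most of the flight muscle sum.

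The order of the libraries was shared by most members. Among the 30 head muscle genes tested, 23 had wBerlin libraries 2 and 3 above each of the other 4 libraries, a pattern that 8.39% of all tested genes showed. The lowest of the 6 libraries was Kdm3 KO library 1 for 27 of the 30 (13.0% of all genes), and the highest was wBerlin library 3 for 23 (12.6%). These 23 are the thick filament genes Mhc, Mlc1, Mlc2, Prm and Mf, the thin filament genes Act79B, Act87E, Tm1, Tm2, up, wupA and TpnC41C, the Z disc genes sls, Zasp52, Zasp66, Actn, Mlp60A and Mlp84B, and Unc-89, SERCA, RyR, Mp20 and Argk1. The 7 others were Act57B, TpnC25D, TpnC47D, TpnC73F, tmod, Zasp67 and Strn-Mlck.

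In the test across all genes, 1 member, Act87E, fell in Kdm3 KO and 0 rose. The background was 0.917% of all tested genes lower and 2.15% higher by edgeR's quasi-likelihood test at an adjusted p under 0.05. At an unadjusted p under 0.05, 18 members were lower and 2 higher, where 7.51% and 7.14% of all tested genes were. DESeq2 called 11 members lower and 0 higher (2.91% and 3.66% of all genes), and limma voom 1 lower and 0 higher (0.782% and 1.99%). The members' median log2 fold change, Kdm3 KO over wBerlin, was −0.55, beside 0.04 over all tested genes. Of the 33 members tested, 28 had a negative and 5 a positive log2 fold change, where 6129 and 7940 of all 14069 tested genes did. In 6 members all Kdm3 KO libraries lay below all wBerlin libraries, namely Mf, Act87E, Tm2, Zasp66, Mp20 and Argk1, against 9.33% of all tested genes. The reverse held for 0 members and 9.35% of all tested genes.

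Which wBerlin libraries entered the fit changed how many members were called. Without wBerlin library 1, 17 of 33 members were lower (3.24% of all genes), and the median was −0.77. That library was the lowest of wBerlin for 27 of the 33 members (35.8% of all tested genes), so leaving it out itself favours lower calls. In wBerlin library 1 against the 3 Kdm3 KO libraries, a comparison chosen after the data were seen, 1 member was lower, TpnC73F (0.344% of all genes), and the median was −0.13. The lone wBerlin library is assumed there to vary as the Kdm3 KO libraries do. That library was the lowest of wBerlin for most members, so using it as the only control itself favours smaller decreases. For TpnC73F it was the highest of wBerlin, which favours a lower call. In the 4 libraries that remained once wBerlin library 1 and Kdm3 KO library 2 were dropped, 18 members were lower (3.39%). Those libraries are the lowest of wBerlin and the highest of Kdm3 KO in summed head muscle RNA and were known from earlier results to stand apart, so that choice itself favours lower calls and the count is no support. Leaving out wBerlin library 2, wBerlin library 3, Kdm3 KO library 1 or Kdm3 KO library 2 left 0 members called, where 0.433%, 1.1%, 0.558% and 1.07% of all genes were lower. Leaving out Kdm3 KO library 3 left Mp20 as the 1 lower member (0.454%).

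**Figure D2:**
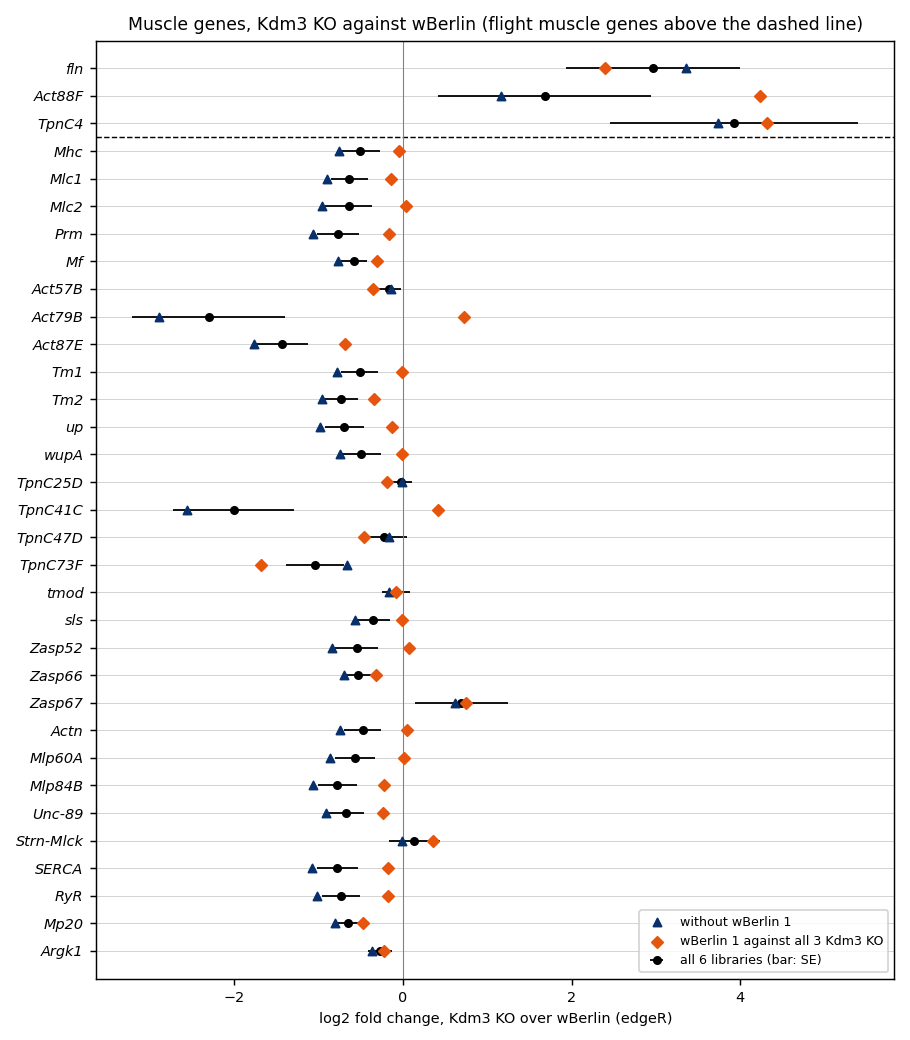
Log2 fold changes of the 33 tested members, Kdm3 KO over wBerlin, from edgeR with all 6 libraries (black circles, bars are SE), without wBerlin library 1 (triangles), and for wBerlin library 1 against the 3 Kdm3 KO libraries (diamonds). Most head muscle genes lie below 0 in the fit of 6 libraries (median of all members −0.55) and move close to 0 when wBerlin library 1 is the control (−0.13). Library 1 is the lowest of wBerlin for 27 of the 33 members, which itself favours that move.

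Thick filament genes followed the common order with modest differences. Mhc, the muscle myosin heavy chain (arm 2L, 16766566 to 16788766, BDGP6), was at 10134, 14783 and 18490 CPM in wBerlin libraries 1, 2 and 3 and at 8158, 11752 and 10499 CPM in Kdm3 KO. The groups overlapped, and its log2 fold change of −0.51 (SE 0.23) did not pass edgeR's test (adjusted p = 0.358). Mf, which encodes the thick filament protein myofilin, was at 1521, 1970 and 2206 CPM in wBerlin and 1181, 1220 and 1407 CPM in Kdm3 KO. The groups of Mf did not overlap, and the log2 fold change was −0.58 (SE 0.16, adjusted p = 0.0924). Prm, the gene of paramyosin, the core protein of the thick filament, had a log2 fold change of −0.77 (SE 0.25, adjusted p = 0.162). The myosin light chain genes Mlc1 and Mlc2 had log2 fold changes of −0.64 and −0.65 and did not pass either.

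Actin isoforms ranged from nearly level to the most variable of the head muscle genes. Act87E (FBgn0000046, arm 3R, 13425983 to 13428375), an actin known from larval body wall muscle, was at 421, 757 and 1030 CPM in wBerlin libraries 1, 2 and 3 and at 184, 299 and 333 CPM in Kdm3 KO. Every Kdm3 KO library lay below every wBerlin library, with wBerlin library 1 the nearest. Act87E fell from 736 ± 305 to 272 ± 78.1 CPM (SD, n = 3), a log2 fold change of −1.44 (SE 0.31) that passed edgeR's test with an adjusted p of 0.0409. Leaving out any single library other than wBerlin library 1 ended this call (adjusted p 0.0718 to 0.126, edgeR). Upper quartile or total count scaling ended it too (adjusted p 0.0600 and 0.0653, edgeR). Against wBerlin library 1 alone, the lowest of its group for Act87E, the log2 fold change was −0.68.

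Act87E stood lower in Kdm3 KO relative to the other head muscle genes as well. The log2 ratio of Act87E to the sum of the other 30 was −6.55, −6.29 and −6.14 in wBerlin libraries 1, 2 and 3 and −7.42, −7.13 and −6.96 in Kdm3 KO. The mean difference was −0.84 with no overlap (exact two-sided permutation p = 0.1, the smallest that 3 against 3 allows). Act87E was chosen for this ratio because it had passed the test, so the ratio is no separate support.

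Act79B (arm 3L, 21985210 to 21987190) varied most among the head muscle genes. It was at 330, 3266 and 4816 CPM in wBerlin libraries 1, 2 and 3 and at 101, 712 and 889 CPM in Kdm3 KO. Library 3 of wBerlin was 14.6 times library 1, and Kdm3 KO libraries 2 and 3 were 7.05 and 8.80 times library 1, so libraries of both genotypes were spread widely. Act79B, TpnC41C and Act88F were the 3 members whose level in wBerlin libraries 2 and 3 was at least 5 times that in library 1 (0.291% of all tested genes), and 12 of 33 members reached 1.5 times (5.57%). The log2 fold change of Act79B, −2.31 (SE 0.90), did not pass edgeR's test (adjusted p = 0.265). Against wBerlin library 1 alone it was 0.72, the opposite direction, but that library was the lowest of its group for Act79B. By contrast Act57B, the main actin of larval body wall muscle, was at 2729, 2419 and 2255 CPM in wBerlin and 2071, 2025 and 2506 CPM in Kdm3 KO. It had no excess in wBerlin libraries 2 and 3, and the log2 fold change was −0.17 (SE 0.14, adjusted p = 0.678).

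**Figure D3:**
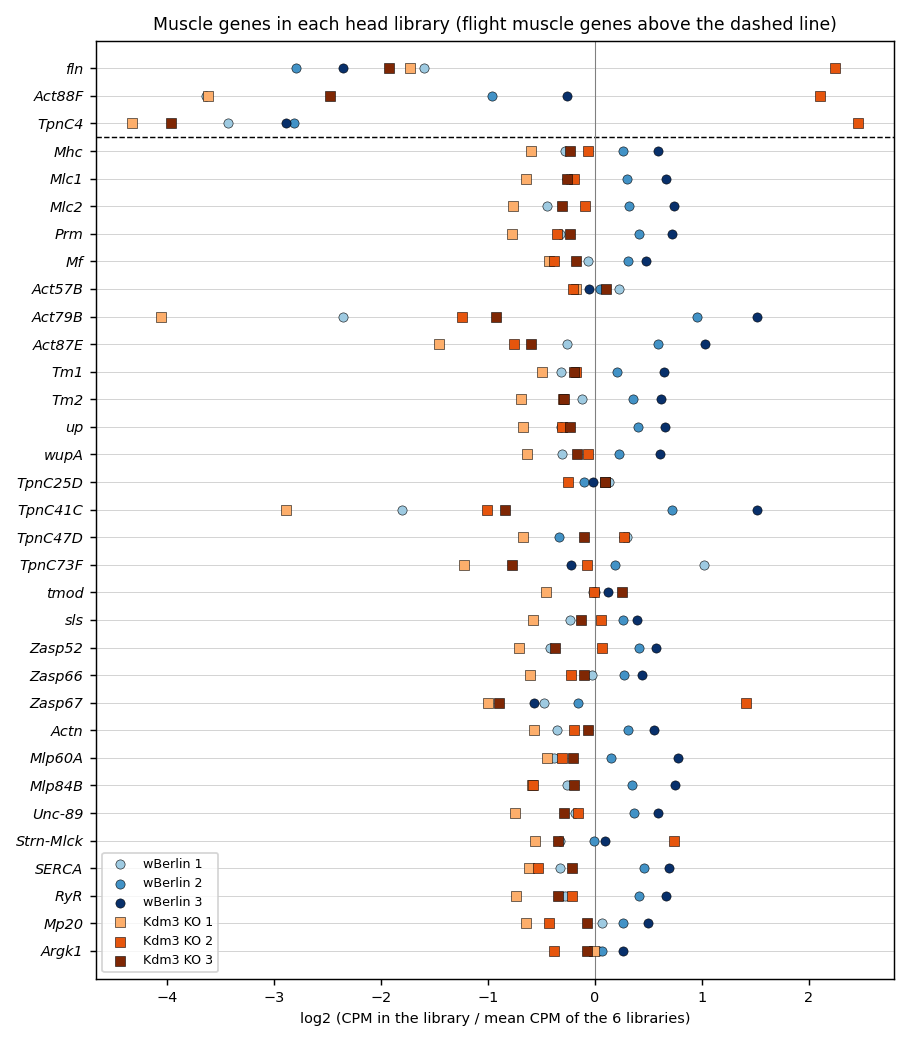
Each of the 33 tested members (rows) in the 6 libraries, as log2 of its CPM in a library over its mean CPM in the 6 (horizontal axis), with circles for wBerlin and squares for Kdm3 KO. Dark blue circles, wBerlin library 3, lie rightmost for 23 of the 30 head muscle genes, Act79B and TpnC41C spread most among them, and the flight muscle genes above the dashed line have Kdm3 KO library 2 far to the right.

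The mix of actin isoforms also differed between libraries. Per exon length, Act79B made up 10.1%, 51.8% and 60.03% of the 4 sarcomeric actins in wBerlin libraries 1, 2 and 3 and 4.55%, 17.1% and 24.9% in Kdm3 KO. Act57B made up 78.6%, 36.00% and 26.4% in wBerlin and 87.6%, 45.8% and 66.0% in Kdm3 KO. In wBerlin library 1 and all Kdm3 KO libraries Act57B was the most abundant sarcomeric actin per length, and in wBerlin libraries 2 and 3 it was Act79B. The share of Act87E was 10.5%, 9.77% and 10.5% in wBerlin and 6.73%, 5.86% and 7.59% in Kdm3 KO, the 1 share of the 9 tested whose groups did not overlap. Its exact two-sided permutation p was 0.1 (0.6 adjusted over the 9 actin and troponin C shares), and with 3 against 3 this permutation test cannot pass 0.05. Actin genes have near-identical coding sequences, so the way reads were divided among them is uncertain.

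Troponin C genes, the calcium sensors of the thin filament, showed a similar split. TpnC41C (arm 2R, 5065237 to 5070210) was at 59.9, 344 and 599 CPM in wBerlin libraries 1, 2 and 3 and 28.2, 104 and 117 CPM in Kdm3 KO. Its log2 fold change was −2.01 (SE 0.72) and did not pass edgeR's test (adjusted p = 0.210). Against wBerlin library 1 alone it was 0.42, the opposite direction, but that library was the lowest of its group for TpnC41C. TpnC25D was nearly level, between 424 and 552 CPM in all 6 libraries (log2 fold change −0.02, SE 0.13, adjusted p = 0.967). Per length it was the most abundant troponin C in every library, at 53.9% to 94.2% of the family, with TpnC41C between 3.27% and 43.0%.

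The 2 troponin C genes known from larval muscle were low and did not follow the common order. TpnC73F (arm 3L, 17046063 to 17048390) was at 36.7, 20.5 and 15.5 CPM in wBerlin libraries 1, 2 and 3 and 7.71, 17.1 and 10.6 CPM in Kdm3 KO. It was highest in wBerlin library 1, where the other head muscle genes of the wBerlin group were mostly lowest. The log2 fold change was −1.05 (SE 0.34, adjusted p = 0.165), and against wBerlin library 1 alone it was −1.68 (adjusted p = 0.0441). TpnC47D was between 2.54 and 4.99 CPM in all libraries.

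**Figure D4:**
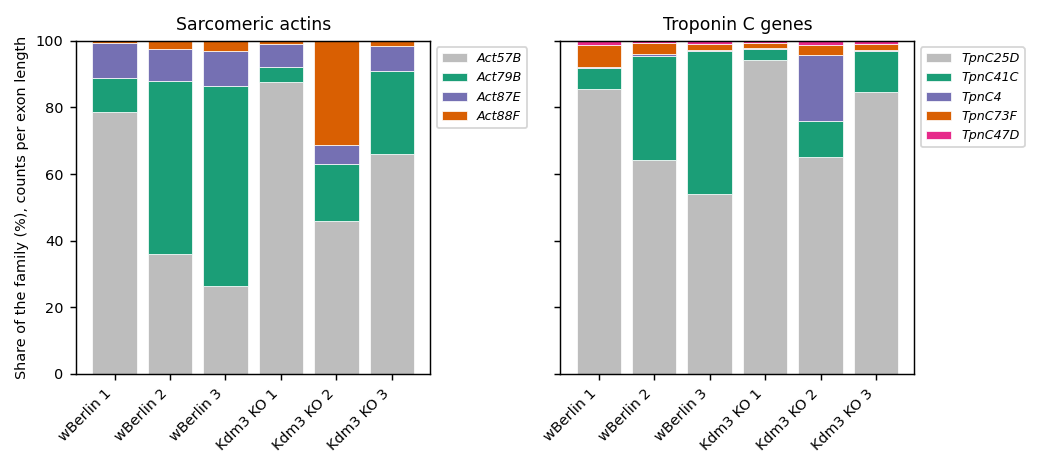
Share of each gene (vertical axis, percent of the family's counts per exon length) among the 4 sarcomeric actins and the 5 troponin C genes in each of the 6 libraries. Act79B takes 51.8% and 60.03% of sarcomeric actin in wBerlin libraries 2 and 3 and at most 24.9% elsewhere, and Act88F takes 31.2% in Kdm3 KO library 2.

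The other thin filament genes kept closer together. Tm2, which codes for tropomyosin along the actin filament, was at 836, 1160 and 1394 CPM in wBerlin libraries 1, 2 and 3 and 563, 738 and 741 CPM in Kdm3 KO. The groups of Tm2 did not overlap, and the log2 fold change was −0.73 (SE 0.19, adjusted p = 0.0831). The second tropomyosin gene Tm1, the troponin T gene up and the troponin I gene wupA had log2 fold changes of −0.51, −0.70 and −0.49 with overlapping groups (adjusted p 0.169 to 0.368). Tropomodulin, tmod, which caps the pointed end of actin filaments, had a log2 fold change of −0.08 (SE 0.17, adjusted p = 0.880).

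Z disc genes and the giant kinases behaved like the thick filament genes, with 2 exceptions. Mlp84B, a muscle LIM protein gene, was at 755, 1151 and 1530 CPM in wBerlin libraries 1, 2 and 3 and 603, 607 and 793 CPM in Kdm3 KO (log2 fold change −0.78, SE 0.23, adjusted p = 0.127). Zasp66, which codes for a PDZ protein of the Z disc, was at 654, 802 and 902 CPM in wBerlin and 437, 571 and 619 CPM in Kdm3 KO (log2 fold change −0.53, SE 0.16, adjusted p = 0.137). Mlp84B overlapped through wBerlin library 1, whereas Zasp66 did not overlap. The sls, Zasp52, Actn and Mlp60A genes had log2 fold changes of −0.36 to −0.57, and Unc-89, the obscurin gene (Obsc in the annotation), −0.67 (SE 0.21, adjusted p = 0.150). The exceptions were Zasp67 and Strn-Mlck, both of which were highest in Kdm3 KO library 2. Zasp67 was at 8.11 to 14.6 CPM in 5 libraries and 43.3 CPM in Kdm3 KO library 2, and Strn-Mlck, a stretchin kinase gene, at 521 to 816 CPM and 1278 CPM.

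The calcium store genes had similar differences. SERCA, the pump that returns calcium to the sarcoplasmic reticulum, was at 3744, 6437 and 7565 CPM in wBerlin libraries 1, 2 and 3 and 3059, 3232 and 4037 CPM in Kdm3 KO. The groups differed by a log2 fold change of −0.78 (SE 0.24, adjusted p = 0.144). RyR, the calcium release channel, had a log2 fold change of −0.74 (SE 0.23, adjusted p = 0.140). Both overlapped between the groups through wBerlin library 1 and Kdm3 KO library 3 or 2.

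Of the remaining members, Mp20, a calponin-like muscle protein gene, was at 266, 306 and 360 CPM in wBerlin and 163, 190 and 242 CPM in Kdm3 KO. Its groups did not overlap, its log2 fold change was −0.65 (SE 0.16), and its adjusted p was 0.0708. Among the head muscle genes this was the smallest p after that of Act87E. Argk1, the arginine kinase that buffers ATP and is also used outside muscle, was at 2589 to 3033 CPM in wBerlin and 1943 to 2517 CPM in Kdm3 KO (log2 fold change −0.27, SE 0.14, adjusted p = 0.451).

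Flight muscle genes set a different library apart. TpnC4 (arm 2R, 5503437 to 5507866) was at 1.47, 2.26 and 2.15 CPM in wBerlin libraries 1, 2 and 3 and 0.795, 87.8 and 1.02 CPM in Kdm3 KO. For fln (arm 3L, 19989551 to 19991220) the levels were 1.01, 0.438 and 0.595 CPM in wBerlin and 0.914, 14.4 and 0.799 CPM in Kdm3 KO. Both were at 2.26 CPM or less except in Kdm3 KO library 2, which exceeded the highest other library 38.8-fold for TpnC4 and 14.4-fold for fln. Exons of fln share 801 bases with the opposite-strand gene asRNA:CR45161, and whether counting used strand is not given, so its level is uncertain.

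Act88F (arm 3R, 15439969 to 15442177) combined both patterns. It was at 23.8, 153 and 247 CPM in wBerlin libraries 1, 2 and 3 and 24.2, 1276 and 53.2 CPM in Kdm3 KO. Kdm3 KO library 2 was 5.17 times the next library, and wBerlin library 3 was 10.4 times wBerlin library 1. For TpnC4 wBerlin library 3 was 1.46 times library 1, and for fln it was lower, at 0.592 times. These 3 genes were the members that Kdm3 KO library 2 held at 5 times each other library or more, which 0.185% of all tested genes did. With Zasp67, 4 members were at 2 times or more (5.81%). None of the 3 passed edgeR's test, with log2 fold changes of 1.68 (SE 1.26, adjusted p = 0.632) for Act88F, 3.93 (SE 1.47, adjusted p = 0.238) for TpnC4 and 2.96 (SE 1.03, adjusted p = 0.196) for fln. Without Kdm3 KO library 2 those of Act88F and TpnC4 turned to −1.86 and −1.10 (adjusted p 0.266 and 0.0740, edgeR). The summed flight muscle level on the log2 scale was 6.65 ± 1.71 in wBerlin and 6.97 ± 3.05 in Kdm3 KO (SD, n = 3, exact two-sided permutation p = 1). Act88F made up most of this sum in every library, such as 153 of 155 CPM in wBerlin library 2 and 1276 of 1378 CPM in Kdm3 KO library 2. The sum therefore mainly describes Act88F.

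Gut markers were highest in the same library. The 39 gut markers, 38 of them with counts, summed to 39.8 to 51.7 CPM in wBerlin and to 53.00, 287 and 48.4 CPM in Kdm3 KO libraries 1, 2 and 3. Mal-A1 and Mal-A6 were the largest parts of the sum in Kdm3 KO library 2, at 71.1 and 61.9 CPM. By edgeR's test 2 of the 28 tested gut markers rose and 0 fell (2.15% and 0.917% of all genes). These were Amy-p and Amy-d, with log2 fold changes of 3.26 and 2.31 (adjusted p 0.00154 and 0.00132). Both lay above all wBerlin libraries in every Kdm3 KO library, not only in library 2. Among all listed genes outside the muscle list with at least 10 CPM there, Kdm3 KO library 2 exceeded every other library most for alphaTry, CG34324, betaTry, Muc68D, CG4363, CG3906, yip7, CG10911, CG10912 and CG15617, 16.2- to 47.0-fold. Genes that had not passed the filter on low counts, alphaTry, betaTry and CG4363, are included. The trypsin genes alphaTry and betaTry, both on the list of gut markers, are similar copies whose reads may be divided uncertainly, and Muc68D codes for a mucin-like protein. Antp and Ubx were also highest of the Kdm3 KO libraries in library 2. The part of thorax or gut tissue in these levels was not tested.

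Of the other muscle pathways, 4 of 7 lists held 1 gene each that passed edgeR's test, where 0.917% of all tested genes were lower and 2.15% higher. Of 15 tested genes of sarcomere assembly (18 listed) 1 fell and 0 rose (median log2 fold change −0.27), of 24 genes of muscle attachment 1 fell and 0 rose (−0.12), of 8 neuromuscular junction genes 1 rose and 0 fell (0.10), and of 18 genes of glycolysis 1 rose and 0 fell (0.01). None of the 10 excitation-contraction coupling genes (median −0.07), 19 muscle transcription and splicing factors (−0.18) or 12 non-muscle actin and myosin genes (−0.06) passed edgeR's test, although at an unadjusted p under 0.05 the first list had 1 higher and 2 lower, the second 0 higher and 4 lower and the third 0 higher and 3 lower (7.14% of all genes higher, 7.51% lower). DESeq2, with 2.91% of all genes lower and 3.66% higher, called stj higher and jp lower in the first of these lists, 0 in the second, and Act5C and sqh lower in the last, and limma voom called 0 in all 3 lists.

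The sarcomere assembly genes depended most on the tool. Of the 15 tested, 14 had a negative log2 fold change, 6 were lower at an unadjusted p under 0.05, and DESeq2 called 6 lower, namely cher, jbug, mask, sals, stv and zormin, against 1 by edgeR and 1 by limma voom. Of the attachment genes DESeq2 called Pax and Vinc lower and SPARC higher, of the neuromuscular junction genes Neto higher, and of the glycolysis genes Hex-C and Pgm1 higher. Limma voom called Vinc lower and Hex-C higher and did not call Neto.

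The gene that fell among the attachment genes was Vinc, which codes for vinculin, a linker between integrin complexes and actin. Vinc was at 128, 124 and 123 CPM in wBerlin libraries 1, 2 and 3 and 81.6, 72.3 and 86.5 CPM in Kdm3 KO, with no overlap and no excess in wBerlin libraries 2 and 3. Its change on the log2 scale was −0.64 (SE 0.09, adjusted p = 0.00713, edgeR), and it was called under every alternative run. The co-chaperone gene stv, known for turning over damaged filamin in muscle, fell from 273 ± 13.4 to 165 ± 18.3 CPM (SD, n = 3), a log2 fold change of −0.72 (SE 0.11) with an adjusted p of 0.00713 by edgeR, but did not pass in wBerlin library 1 against Kdm3 KO (adjusted p = 0.0515, edgeR). Neto, an auxiliary protein of the muscle glutamate receptors, rose by a log2 fold change of 0.42 (SE 0.09, adjusted p = 0.0452, edgeR), a call that ended when any 1 of the 6 libraries was left out (adjusted p 0.0548 to 0.169, edgeR). The hexokinase gene Hex-C, active mainly in fat body, rose by a log2 fold change of 0.90 (SE 0.18, adjusted p = 0.0276, edgeR), a call that ended without wBerlin library 3 or Kdm3 KO library 3 (adjusted p 0.0548 and 0.0808, edgeR) and in wBerlin library 1 against Kdm3 KO (0.146).

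The pathway genes with the smallest p in the lists without a call had small differences. For the calcium channel subunit gene stj and the junctophilin gene jp the log2 fold changes were 0.49 and −0.43 (adjusted p 0.0752 and 0.186). For the transcription factor gene lbe and the splicing factor gene how they were −0.52 and −0.34 (adjusted p 0.0735 and 0.222). The cytoplasmic actin Act5C and the non-muscle myosin light chain sqh had −0.44 and −0.32 (adjusted p 0.0934 and 0.142). Of these genes jp and how were higher in wBerlin libraries 2 and 3 than in library 1, like the head muscle genes, while stj and Act5C were not.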

How the data were processed

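Head RNA from 2 genotypes, 3 libraries each, was sequenced after ribosomal RNA depletion. The authors deposited whole-number read counts for each gene without normalization. Per the submitters' processing notes the tools were STAR, SAMtools, HTSeq and DESeq2 and the build BDGP6, with no version, role or strand setting stated. Symbols, positions and exon lengths come from Ensembl release 115 (BDGP6.54, the same assembly family). All 34 members matched, while the listed genes zip, Ca-beta and Unc-45 did not match and were not analysed here.

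From the deposited counts, edgeR 4.0.16 in R 4.3.3 was run (TMM, filterByExpr, glmQLFit and glmQLFTest with a two-sided test of genotype, Benjamini-Hochberg over 14069 genes, threshold 0.05, biological coefficient of variation 18.2%). SE is the log2 fold change over the square root of F. DESeq2 1.42.0 and limma 3.58.1 voom were alternatives, with other scalings, other filters, a replicate block and left-out libraries. The fit was tested on simulated data with the same spread for every gene and no library set apart, so that test does not cover single deviating libraries such as those seen here. Single values used exact permutation tests over libraries.

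Members, lists and tests were chosen with earlier results of these data known. Full statistics are given for called members, flight muscle genes, the 2 smallest p per role, called pathway genes (otherwise the 2 smallest p), and the 10 genes that most set Kdm3 KO library 2 apart. Other named genes were chosen after their values were seen. Between libraries of a genotype the chi-square of gene counts was 16.8 to 65.8 times its degrees of freedom, well beyond sampling noise.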

Additional observations from a re-analysis of the deposited data

How the results depend on the processing

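The labels do not state whether same-numbered libraries of the 2 genotypes were handled together. Same-numbered libraries deviated from their group means with correlations of 0.34, 0.25 and −0.05. The values 0.34 and 0.25 were the largest of all pairings, whereas Kdm3 KO library 3 correlated best with wBerlin library 1. With the replicate block 417 genes were higher and 362 lower, and 13 members lower, against 303, 129 and 1 without it. Lower members numbered 0 with upper quartile or total count scaling and with a 5 CPM filter, 2 with no filter, 11 by DESeq2, 18 in 4 libraries (wBerlin 2 and 3, Kdm3 KO 1 and 3), and 0 to 17 with 1 library left out. The members' median log2 fold change stayed negative in every setting, from −0.83 to −0.11. Higher genes numbered 492 with the filter of 5 CPM, 515 by DESeq2, 606 in those 4 libraries, 84 in wBerlin library 1 against Kdm3 KO, and 181 to 574 with 1 library left out. Lower genes numbered 212 with upper quartile scaling, 266 with no filter, 276 with the filter of 5 CPM, 409 by DESeq2, 476 in the 4 libraries, 52 in wBerlin library 1 against Kdm3 KO, and 62 to 467 with 1 library left out.

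Directions of Act88F and TpnC4 turned with the libraries used, of which the 4 leave out the library that carries the flight muscle genes. The summed flight muscle difference, 0.32, was −2.38 in the 4 libraries and −1.41 to 1.45 with 1 library left out. Act88F and TpnC4 were at −2.37 and −1.29 in the 4 libraries (both called, edgeR adjusted p 0.0208 and 0.0263), and with 1 library left out Act88F ranged from −1.86 to 2.34 and TpnC4 from −1.10 to 4.51. In wBerlin library 1 against Kdm3 KO libraries 1 and 3, a comparison added after the data were seen, TpnC4 was at −0.69, fln at −0.22 and Strn-Mlck at −0.11, while Act88F was at 0.71. The fold change of fln stayed positive in the 4 libraries (0.75) and without Kdm3 KO library 2 (0.33). Strn-Mlck, at 0.14, was −0.49 in the 4 libraries, −0.02 without wBerlin library 1, and −0.37 to 0.38 with any 1 library left out. The differences in share were reversed for Act88F and TpnC4 in the 4 libraries (−1.48 and −0.18 percentage points). With 1 library left out that of Act88F ranged from −0.795 to 14.2 percentage points, that of TpnC4 from −0.157 to 9.68, and that of TpnC47D from −0.0976 to 0.179. The causes were not tested.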

Other observations

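Act79B, TpnC41C and Act88F had company in wBerlin libraries 2 and 3. At 2 CPM or more in both libraries and at least 5 times wBerlin library 1 in both stood 36 tested genes, the 3 muscle genes and 33 others, a list made after the muscle values were seen. In all 33 others, every Kdm3 KO library also lay below wBerlin libraries 2 and 3. The list was chosen for high levels in those wBerlin libraries, which favours that order, and no background was set beside it. Act88F did not follow it, with 1276 CPM in Kdm3 KO library 2 and 153 and 247 CPM in wBerlin libraries 2 and 3. The others included Scp1, a sarcoplasmic calcium-binding protein gene, at 117, 1259 and 2128 CPM in wBerlin libraries 1, 2 and 3 and 17.4, 462 and 330 CPM in Kdm3 KO libraries 1, 2 and 3.

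Among the 33 others were 6 genes whose symbols begin with Obp, the odorant-binding proteins, and 8 whose symbols begin with CheA or CheB, families known from taste hairs of the legs, counts that were set against no background. Os-C, an antennal gene, was at 4.78, 55.3 and 79.5 CPM in wBerlin libraries 1, 2 and 3 and 0.636, 1.79 and 0.533 CPM in Kdm3 KO. The channel gene ppk23, which serves pheromone-sensing neurons of the legs and mouthparts, was at 2.51, 13.4 and 17.9 CPM in wBerlin and 1.67, 2.38 and 3.28 CPM in Kdm3 KO. Os-C lay below wBerlin library 1 in every Kdm3 KO library, whereas Act79B and TpnC41C lay above it in Kdm3 KO libraries 2 and 3. The part of leg or antennal tissue in the levels of the muscle genes was not tested.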
